A study of Mus musculus with 6 samples.

Results

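Cytochrome P450 genes and the other phase I and II enzyme genes of the liver were followed in liver tumours and non-tumorous liver of mice that lack the splicing factor gene Srsf3 in hepatocytes. The set was a fixed list of 42 genes: 27 P450 genes, the P450 reductase Por, and flavin monooxygenases, carboxylesterases, aldehyde oxidases, glucuronosyltransferases and sulfotransferases. A gene was used where at least 1 array feature named it alone, which left 25 of the 42, among 20261 genes of the whole array with a feature of their own. Another 15 genes shared every feature with close relatives and were left out: Cyp2a5, Cyp2c29, Cyp2c37, Cyp2c38, Cyp2c39, Cyp2c50, Cyp2c54, Cyp3a11, Cyp3a25, Cyp4a10, Cyp4v3, Ces3a, Ugt1a1, Ugt2b5 and Ugt3a1. Most of the CYP2C and CYP3A genes were therefore not measured one by one. Por was not analysed here, and Cyp2c44 is given under its current symbol Cyp2c23 without entering any count except the promoter search.

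All 6 samples were total RNA from C57BL/6 mice of the SRSF3HKO genotype, 24 months old and untreated, hybridised to 1 Affymetrix exon array each. The 3 controls were pieces of non-tumorous liver, numbered 405, 483 and 623 in the labels, and the 3 cases were hepatocellular carcinomas, numbered 405, 483 and 616. Controls and tumours thus both lacked Srsf3 in hepatocytes, and no liver with intact Srsf3 was analysed here. Whether each sample stands for its own animal is not in the labels, so p-values measure only the spread between these samples.

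Drug and steroid metabolism in liver runs in phases. Phase I enzymes, chiefly P450s that take electrons from Por, oxidise or hydrolyse a compound, and phase II enzymes couple the product to glucuronic acid, sulfate or other groups for excretion. Hepatocytes around the central vein carry most of the inducible P450s, while a few, such as Cyp2f2 in the mouse, lie around the portal vein. The receptors AHR, CAR, PXR and PPAR-alpha induce separate P450 genes, and several mouse liver P450s differ between the sexes under the pattern of growth hormone release.

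The promoters of 4 members are shown because their genes stand for the patterns described below. Cyp1a2, an AHR target of the pericentral zone, and the periportal Cyp2f2 stood at opposite ends in tumour 405, Sult1d1 was among the members with positive differences, and Cyp26a1 is the retinoic acid target. The windows run from 250 bases before to 50 bases after the annotated start, from RefSeq on GRCm38.p6, 5′ to 3′ on the gene's strand. Among the 25 members and Cyp2c23, 18 genes had such a window. Capitals mark every match, on either strand, to 5 motifs. The core promoter box searched was TATAAA. For the aryl hydrocarbon receptor the letters were TNGCGTG. The retinoic acid element, a direct repeat, was AGTTCA repeated after a gap of 5 bases. The liver factors were HNF1, with its half-site GTTAAT, and members of the C/EBP family, for which TTGCNNAA was used. No match in these 4 windows overlapped another.
Cyp1a2 promoter, chr9:57683606-57683905, minus strand: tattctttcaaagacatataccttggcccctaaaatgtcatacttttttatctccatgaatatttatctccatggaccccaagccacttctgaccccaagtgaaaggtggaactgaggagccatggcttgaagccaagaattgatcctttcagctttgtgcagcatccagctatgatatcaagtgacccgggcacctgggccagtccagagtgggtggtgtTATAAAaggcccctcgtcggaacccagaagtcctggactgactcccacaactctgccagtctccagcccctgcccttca
Cyp2f2 promoter, chr7:27119705-27120004, plus strand: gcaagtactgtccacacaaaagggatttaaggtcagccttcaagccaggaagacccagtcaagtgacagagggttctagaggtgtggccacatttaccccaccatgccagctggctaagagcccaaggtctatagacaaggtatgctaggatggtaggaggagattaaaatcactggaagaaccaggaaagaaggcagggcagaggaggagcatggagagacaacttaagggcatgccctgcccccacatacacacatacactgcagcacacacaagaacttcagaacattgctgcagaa
Sult1d1 promoter, chr5:87568957-87569256, minus strand: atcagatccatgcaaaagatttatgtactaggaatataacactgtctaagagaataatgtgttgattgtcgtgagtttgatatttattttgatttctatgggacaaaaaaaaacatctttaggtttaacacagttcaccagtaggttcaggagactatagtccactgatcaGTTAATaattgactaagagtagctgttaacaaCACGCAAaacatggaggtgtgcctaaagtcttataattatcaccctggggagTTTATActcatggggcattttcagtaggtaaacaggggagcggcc
Cyp26a1 promoter, chr19:37697558-37697857, plus strand: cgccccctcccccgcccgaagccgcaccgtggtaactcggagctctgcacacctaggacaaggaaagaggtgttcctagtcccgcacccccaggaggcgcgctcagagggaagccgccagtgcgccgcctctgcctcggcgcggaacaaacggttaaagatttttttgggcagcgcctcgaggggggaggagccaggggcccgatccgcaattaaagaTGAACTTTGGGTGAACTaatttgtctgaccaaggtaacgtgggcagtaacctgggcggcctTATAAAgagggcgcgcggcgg
Counted from 0 at the annotated start, the TATA box of Cyp1a2 lay at -29 to -24. The TATAAA matches of Sult1d1, on the opposite strand at 5 to 10, and of Cyp26a1, at 29 to 34, lay after the start. The retinoic acid element of Cyp26a1 lay at -32 to -16. That element was found in 8 of 32851 windows (0.0244%) and in 1 of the 18 windows of the members and Cyp2c23. TATAAA was in 13.6% of all windows and in 7 of the 18, TNGCGTG in 5.07% and 1, GTTAAT in 7.1% and 4, and TTGCNNAA in 10.8% and 4. The window of Cyp2f2 held none of these letters. A match is a run of letters and no measured binding.

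Levels are given as log2(intensity + 16) after quantile normalization, which gives the arrays one distribution of values, and differences are tumour minus non-tumour on that scale. Values are listed in the order non-tumour 405, 483 and 623, then tumour 405, 483 and 616; where group means follow they carry the SD (n = 3), and differences carry limma's SE. The normalization mattered because the array medians as deposited spanned 1.2 log2 units. Albumin (Alb) lay between 13.22 and 13.33 on all 6 arrays, and the mean of 13 hepatocyte markers between 12.11 and 12.64, so every sample carried abundant hepatocyte RNA. Because the arrays were given the same distribution, levels this near its top do not show equal amounts. Non-tumour 623 stood apart in sex-linked genes: Xist, which coats an inactive X, was at 5.17 against 10.55 to 12.30 elsewhere, and the Y-linked Eif2s3y was at 8.69 against at most 5.10. In such pieces of tissue, fewer cells of a type and less RNA per cell cannot be told apart.

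The 25 members were bright genes that varied widely between arrays, and the tumours did not differ from the non-tumorous livers beyond that spread. All 25 passed the filter on dim features, and 16 lay above the 90th percentile of levels among the 16824 genes tested. None passed limma with Benjamini-Hochberg adjustment (adjusted p from 0.914 to 0.985), where 0% of all genes passed in either direction, and none had an unadjusted p under 0.05, against 2.66% of all genes higher and 1.0% lower. Differences were positive for 15 members and negative for 10, against 43.5% positive and 56.5% negative over all genes, with a median of 0.06 beside -0.05. As deposited the split was 12 positive and 13 negative, with the median gene at -0.48. With median centring it was 21 and 4, with the median gene at 0. Members above the median gene numbered 21 in both of these settings, against 15 in the main one. Without non-tumour 405 the split became 9 positive and 16 negative; without non-tumour 623 it stayed at 15 and 10, with a median of 0.25. The groups did not overlap for 1 member, Cyp2d26, which was higher in tumour, against 3.93% of all genes higher and 3.89% lower without overlap.

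The spread, in contrast, was large. The range over the 6 arrays was at least 2 log2 units for 12 of the 25 members, against 7.42% of all genes, with a median of 1.74 beside 0.84. Group SDs had a median of 0.81 in non-tumour and 0.57 in tumour, against 0.33 and 0.22 over all genes. The 95% confidence interval of the difference reached 1 log2 unit in at least 1 direction for 16 of the 25, so a 2-fold change lay within the interval of these genes. The heat map of deviations shows no column block that separates tumours from controls.

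**Figure D1:**
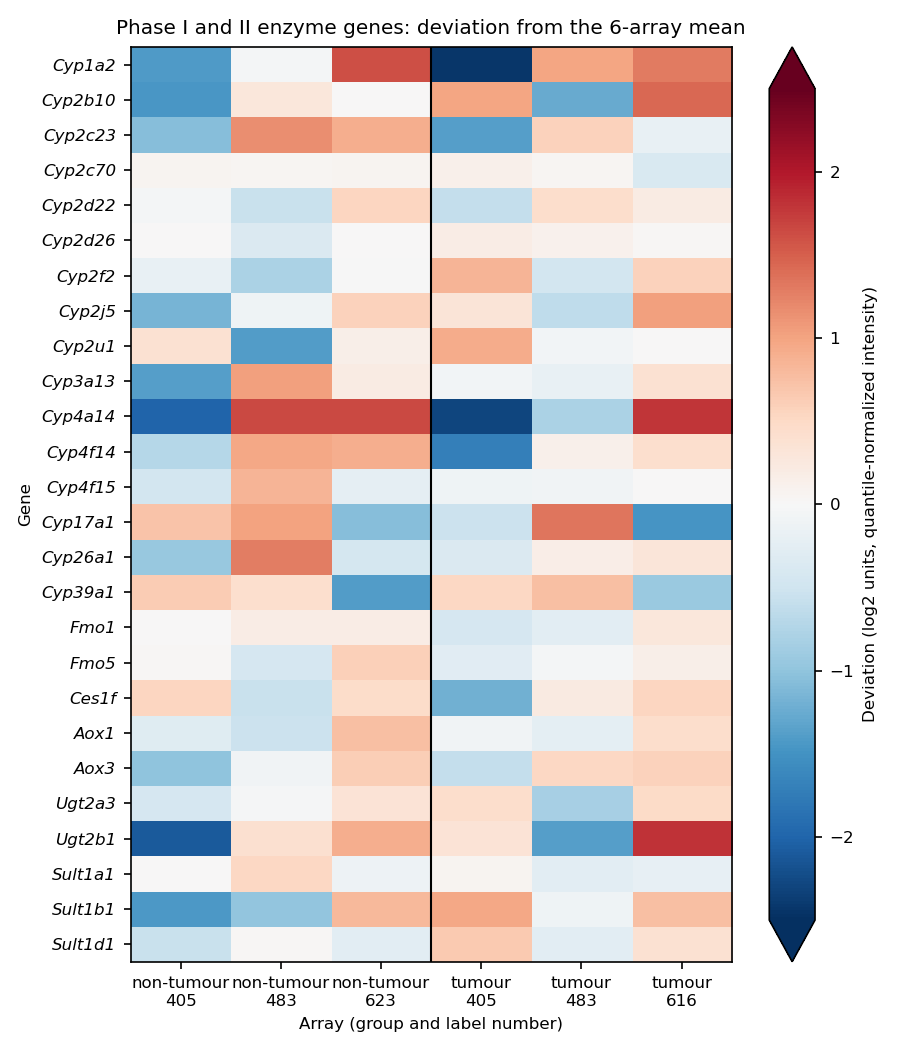
Deviation of each gene from its mean over the 6 arrays (log2 units, colour), with genes in rows by family and arrays in columns; the vertical line parts non-tumour from tumour. Cyp4a14 and Cyp1a2 are low in both samples numbered 405, and Cyp17a1 and Cyp39a1 are low in non-tumour 623 and tumour 616.

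**Figure D2:**
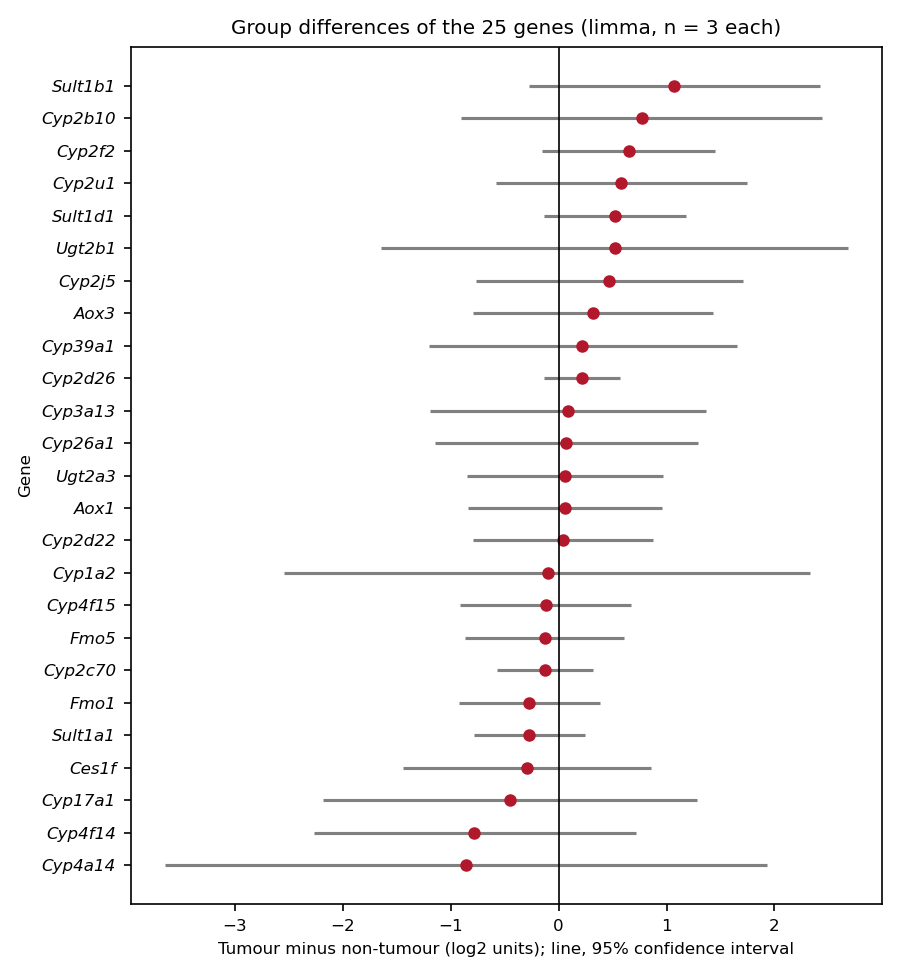
Tumour minus non-tumour (points, log2 units) with the 95% confidence interval (lines) for the 25 genes, ordered by size, n = 3 per group. Every interval includes 0, from Cyp4a14 at -0.86 to Sult1b1 at 1.07.

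Among the inducible P450s of the first families, single samples differed far more than the groups. Cyp1a2, which oxidises caffeine and aromatic amines, stood at 9.03, 10.39 and 12.06 in non-tumour and at 8.0, 11.43 and 11.73 in tumour. Tumour 405 was lowest and non-tumour 623 highest. The group means were 10.49 ± 1.52 and 10.39 ± 2.07, and the difference was -0.10 ± 1.06. Without tumour 405 it was 1.05, and without non-tumour 623 it was 0.73. Cyp2b10, the classic CAR-induced P450, stood at 8.95, 10.69 and 10.42 against 11.38, 9.15 and 11.83. A pair of tumours lay above all controls while tumour 483 lay below 2 of them, with means of 10.02 ± 0.94 and 10.79 ± 1.44 and a difference of 0.77 ± 0.73 (limma adjusted p = 0.914). It kept its sign in every omission of 1 array, between 0.22 and 1.61.

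The CYP2C family was represented by Cyp2c70 alone, the mouse enzyme that makes muricholic bile acids. It stood at 12.07, 12.06 and 12.07 in non-tumour and at 12.14, 12.06 and 11.62 in tumour, so that 5 arrays were nearly level and tumour 616 was lower. The difference was -0.13 ± 0.19, with a 95% confidence interval from -0.57 to 0.32, and it was 0.03 without tumour 616. Cyp2c23, an epoxygenase of arachidonic acid, stood at 9.94, 12.17 and 11.91 against 9.63, 11.59 and 10.82. Both samples numbered 405 were the lowest, and the difference of -0.66 ± 0.66 did not pass (limma adjusted p = 0.914).

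The CYP2D, 2F, 2J and 2U genes all had positive differences, 5 of 5, with a median of 0.47, although none passed. Cyp2d26, a P450 of the mouse CYP2D cluster, was at 12.81, 12.43 and 12.81 in non-tumour and at 12.98, 12.90 and 12.83 in tumour. Every tumour lay above every control, though the lowest tumour at 12.83 was close to the controls at 12.81. The difference was 0.22 ± 0.15, and as deposited the groups overlapped. Cyp2f2, the periportal P450 that activates naphthalene, was at 12.30, 11.69 and 12.47 against 13.33, 12.03 and 13.06. Tumours 405 and 616 were above all controls and tumour 483 was within their range (means 12.15 ± 0.41 and 12.81 ± 0.68, difference 0.65 ± 0.35, limma adjusted p = 0.914). Without tumour 483 the difference was 1.04.

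Cyp2u1, an omega-hydroxylase of long fatty acids that is male-biased in mouse liver, stood at 9.45, 7.68 and 9.22 against 10.01, 9.01 and 9.09. The low value of non-tumour 483 set most of the difference of 0.58 ± 0.51, which fell to 0.03 without it. Cyp2j5, an epoxygenase, lay between 8.58 and 10.30 in non-tumour and between 9.10 and 10.75 in tumour (0.47 ± 0.54), and its 2 features gave 0.33 and 0.61. Cyp2d22, often compared with human CYP2D6, lay between 10.87 and 11.96 against 10.83 to 11.87 (0.04 ± 0.36), with the groups fully interleaved. Without non-tumour 483 the median of these 5 genes was 0.09, and Cyp2d22 was at -0.22.

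Cyp3a13, the 1 CYP3A gene with features of its own, lay at 8.42, 10.82 and 10.00 in non-tumour and at 9.73, 9.60 and 10.17 in tumour. The controls covered the tumours entirely, and the SD was 1.22 in non-tumour against 0.30 in tumour (difference 0.09 ± 0.56). As deposited it was -0.18. Leaving out non-tumour 405 gave -0.59, and leaving out non-tumour 483 gave 0.63.

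The CYP4 fatty acid hydroxylases were negative in 3 of 3 genes, with a median of -0.78, and the 2 larger differences moved most when a sample numbered 405 was left out. Cyp4a14, a PPAR-alpha target that is higher in female mouse liver, stood at 8.19, 11.84 and 11.84 in non-tumour and at 7.89, 9.41 and 11.99 in tumour. Both samples numbered 405 were lowest, tumour 616 was highest, and the means were 10.62 ± 2.10 and 9.76 ± 2.07. The difference of -0.86 ± 1.21 became 0.08 without tumour 405 and -2.11 without non-tumour 405. Cyp4f14, which inactivates leukotrienes, stood at 8.53, 10.21 and 10.15 against 7.53, 9.36 and 9.67. Its 3 tumours all lay below non-tumour 483 and 623, and 1 lay below non-tumour 405 (-0.78 ± 0.65, limma adjusted p = 0.914). It was -0.11 without tumour 405 and -1.37 without non-tumour 405. Cyp4f15 was at 11.92 in non-tumour 483 and between 10.61 and 11.07 on the other 5 arrays (-0.12 ± 0.34; 0.26 with median centring).

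Cyp17a1 and Cyp39a1 had the same 2 lowest samples, 1 from each group, and the same highest, tumour 483. Cyp17a1, the hydroxylase and lyase of androgen synthesis, stood at 12.17, 12.46 and 10.39 in non-tumour and at 10.91, 12.78 and 9.98 in tumour. Cyp39a1, an oxysterol hydroxylase of bile acid synthesis, stood at 11.33, 11.11 and 9.29 against 11.20, 11.44 and 9.76. Both genes are female-biased in mouse liver, and both were lowest in non-tumour 623, where Xist was low, and in tumour 616, where Xist was at 10.55. Their differences were -0.45 ± 0.75 and 0.22 ± 0.62, and without non-tumour 623 that of Cyp39a1 was -0.43. The third gene of this group, the retinoic acid hydroxylase Cyp26a1, stood at 7.22, 9.44 and 7.72 against 7.80, 8.32 and 8.47. Non-tumour 483 was highest and non-tumour 405 lowest, with a difference of 0.07 ± 0.53 that was -0.36 as deposited. The part of sex in these levels was not tested.

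**Figure D3:**
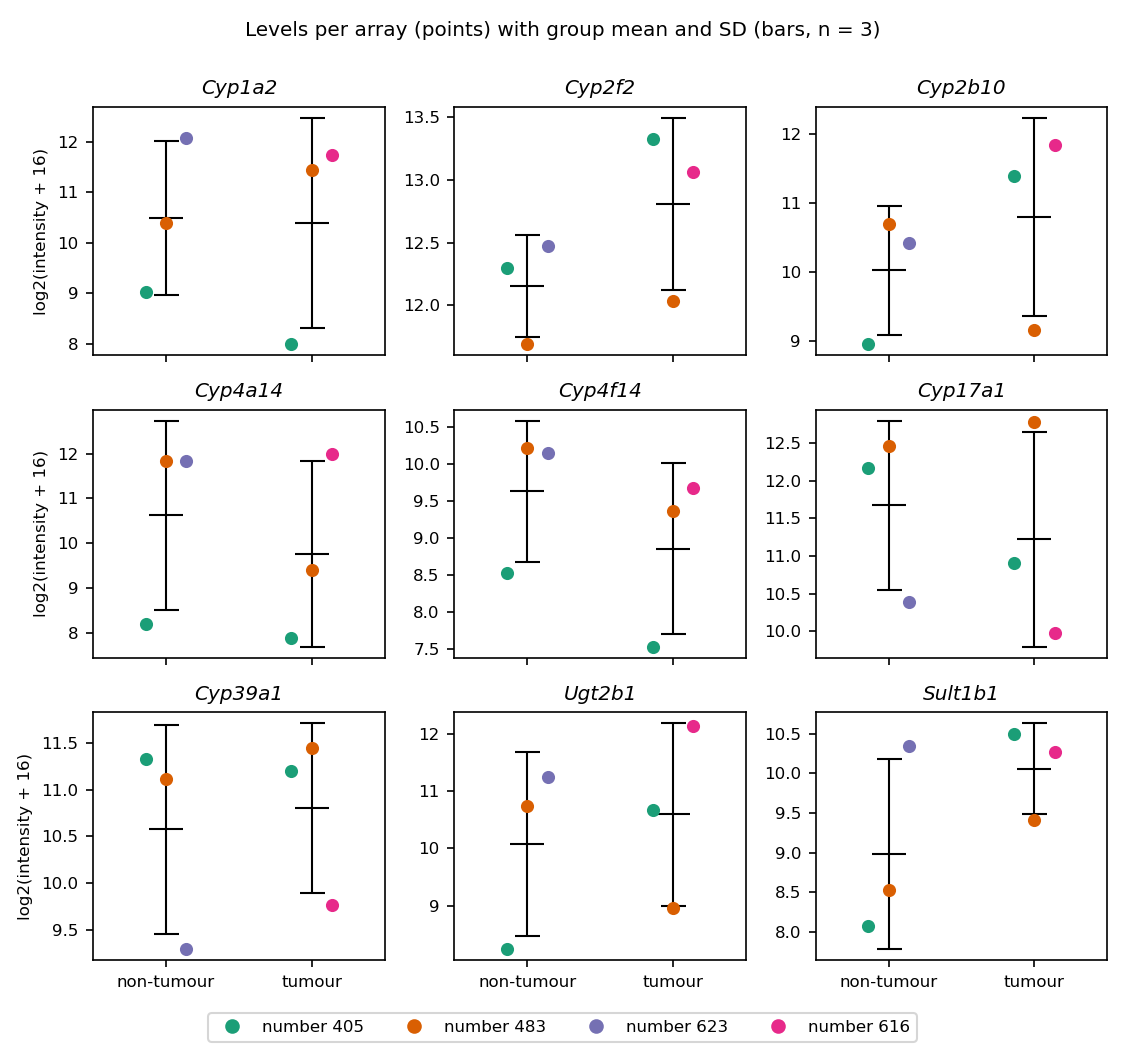
Levels of 9 genes per array, log2(intensity + 16) after quantile normalization, by group; points are arrays coloured by label number, and bars give the group mean and SD (n = 3). Each panel has its own axis, and in all 9 panels the groups overlap.

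The phase I enzymes outside the P450 superfamily spanned 0.72 to 1.74 log2 units over the 6 arrays, at or under the members' median range. Fmo1, a flavin monooxygenase, had differences of -0.08 and -0.45 in its bright and its dim feature, and stood at 9.22, 9.40 and 9.39 against 8.78, 8.95 and 9.49 as their median (-0.27 ± 0.28). A pair of tumours lay just below the controls and tumour 616 just above them. Fmo5, its relative, lay between 9.66 and 10.68 in non-tumour and between 9.80 and 10.24 in tumour (-0.13 ± 0.32). Its 3 features gave 0.04, 0.32 and -0.35, so the sign depended on the feature, and with median centring the gene was at 0.23.

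Ces1f, a carboxylesterase, stood at 10.94, 9.84 and 10.86 against 9.20, 10.63 and 10.93 (-0.29 ± 0.50). Tumour 405 was the lowest sample, and the difference without it was 0.23. The aldehyde oxidases, molybdenum enzymes that oxidise nitrogen rings of drugs, gave 0.06 ± 0.39 for Aox1 (-0.09 as deposited) and 0.32 ± 0.48 for Aox3. Aox1 lay between 9.24 and 10.53 in non-tumour and between 9.53 and 10.23 in tumour, and Aox3 between 8.89 and 10.50 against 9.29 to 10.46. For both, non-tumour 623 was the highest of the 6 arrays.

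Among the conjugating enzymes, the sulfotransferase Sult1b1 had the largest difference of all 25 members. Sult1b1, which sulfates thyroid hormone, stood at 8.08, 8.53 and 10.34 in non-tumour and at 10.49, 9.41 and 10.27 in tumour. All 3 tumours lay above non-tumour 405 and 483, but non-tumour 623 lay above 2 of the tumours, so the groups overlapped (means 8.98 ± 1.20 and 10.06 ± 0.57). The difference was 1.07 ± 0.59 (limma adjusted p = 0.914), the only member of at least 1 log2 unit, where 1.64% of all genes were as much higher and 0.737% as much lower. It was 1.74 without non-tumour 623 and 0.64 without non-tumour 405.

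The catecholamine sulfotransferase Sult1d1, its neighbour on chromosome 5 with no coding gene between them, stood at 10.88, 11.47 and 11.17 against 12.08, 11.17 and 11.82. A pair of tumours again lay above all controls, with tumour 483 within their range (0.52 ± 0.29; 0.79 without tumour 483). The phenol sulfotransferase Sult1a1 lay at 11.84, 12.34 and 11.70 against 11.89, 11.56 and 11.63, where non-tumour 483 was the high sample (-0.27 ± 0.22). Its 95% confidence interval ran from -0.78 to 0.24.

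The 2 glucuronosyltransferase members tested varied between samples within each group, and neither difference between the groups passed. Ugt2b1, male-biased in mouse liver, stood at 8.24, 10.74 and 11.25 in non-tumour and at 10.68, 8.96 and 12.14 in tumour. Each group held 1 sample near 8 or 9 and 2 that were higher, and the difference of 0.52 ± 0.94 went to -0.41 without non-tumour 405. Ugt2a3 stood at 10.41, 10.80 and 11.17 against 11.26, 9.99 and 11.30 (0.06 ± 0.40). In both genes tumour 483 was the lowest tumour and tumour 616 the highest.

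By array, the members as a whole were lowest in non-tumour 405, with a mean deviation of -0.52 from the 6-array mean, and highest in tumour 616, at 0.40. Non-tumour 405 had the lowest value of the 6 arrays for 9 of the 25 genes and tumour 405 for 6. Over all 16824 genes tested, 3821 were lowest in non-tumour 405 and 2944 in tumour 405. Tumour 405 and tumour 616 each had the highest value for 6 members, against 2832 and 2001 of all genes. Tumour 405 thus held lowest values for some members and highest for others, as it did among all genes. It was the highest array for Cyp2f2, Cyp2d26, Cyp2u1, Cyp2c70, Sult1b1 and Sult1d1, and the lowest for Cyp1a2, Cyp4a14, Cyp4f14, Cyp2d22, Ces1f and Fmo1.

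Pericentral genes were low in the same array, tumour 405, which was lowest for 2944 of all 16824 genes tested. Of 13 pericentral genes tested, Cyp1a2 and Ces1f among them, all 13 were lowest in tumour 405, with a mean deviation of -2.44, against -0.69 in non-tumour 405 and 0.52 to 1.09 in the other 4. Cyp2e1, the ethanol-inducible pericentral P450, stood at 11.85, 12.87 and 12.94 against 8.38, 12.13 and 12.68 (-1.49 ± 0.99, limma adjusted p = 0.914). All 13 differences were negative, against 56.5% of all genes, but 8 of the 13 were positive without tumour 405 and 3 with median centring. Cyp7a1 (-1.92 ± 1.60), the first enzyme of bile acid synthesis, and the beta-catenin targets Lgr5 (-1.13 ± 0.90) and Axin2 (-0.86 ± 0.77) did not pass. The 11 periportal genes tested had a mean deviation of 0.07 in tumour 405.

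Markers of some other cells were low in this array as well, where 2944 of all 16824 genes tested were lowest. Of 10 macrophage markers, all 10 tested, 9 were lowest in tumour 405. The log2 of their summed intensity ran from 12.02 to 13.99 in non-tumour and from 10.71 to 13.71 in tumour, where 10.71 was tumour 405. Their mean deviation was -1.77 in tumour 405, -0.75 in non-tumour 405 and -0.42 in tumour 616, and positive in the other 3. Hepatocyte markers were lowest there for 9 of 13, with summed levels of 16.30 to 16.45 in non-tumour and 16.05 to 16.31 in tumour. Stellate and fibroblast markers were lowest there for 6 of 10, with summed levels of 12.49 to 13.19 in non-tumour and 11.18 to 13.05 in tumour. Neutrophil markers had a mean deviation of -0.82 in tumour 405 and -0.83 in non-tumour 405. The cholangiocyte (0.06), adipocyte (0.21), endothelial (-0.19), erythroid (-0.16) and lymphocyte (-0.27) lists were nearer to 0 in tumour 405. The part of these cells in the pericentral and P450 levels was not tested.

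**Figure D4:**
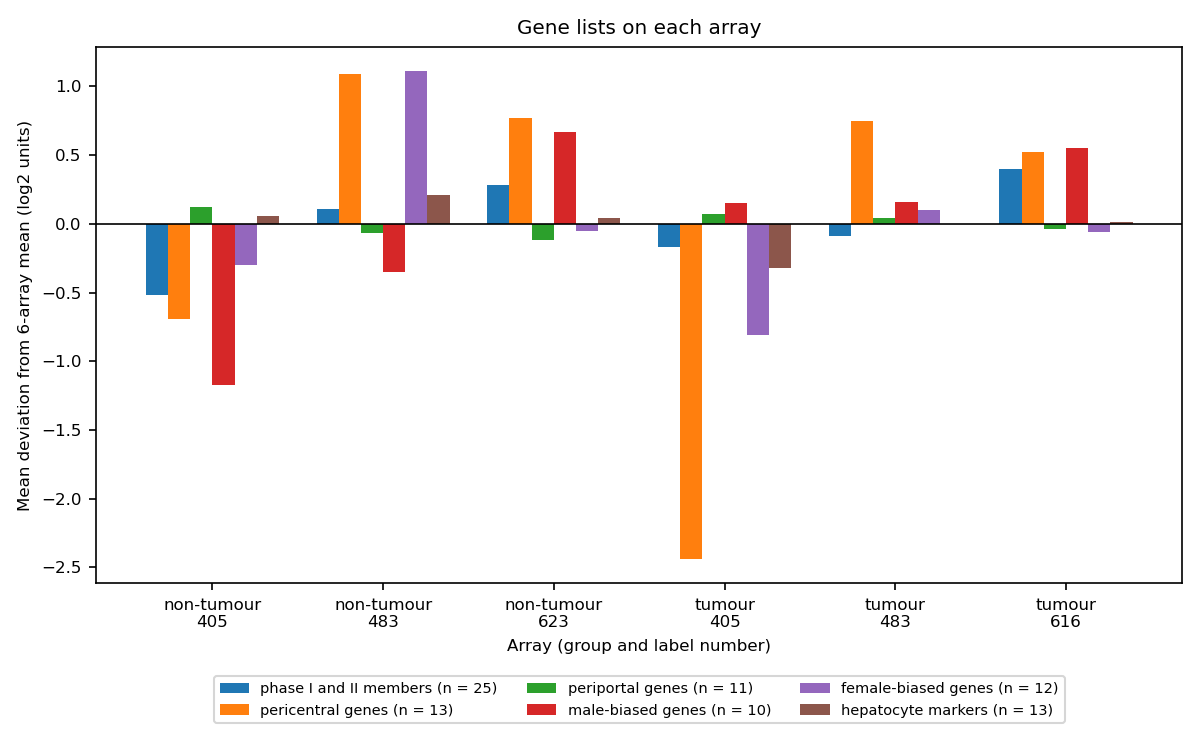
Mean deviation from the 6-array mean (bars, log2 units) of 6 gene lists on each array, with the number of genes in the legend. The pericentral list is at -2.44 in tumour 405, while the phase I and II members stay between -0.52 and 0.40.

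Genes known to differ between the sexes of mouse liver were also counted. Of 10 male-biased genes tested, 8 were positive and 2 negative, against 43.5% and 56.5% of all genes. Those with an unadjusted p under 0.05 were Elovl3 (2.21 ± 0.47), a fatty acid elongase, and Cyp2d9, both positive, and the growth factor receptor gene Egfr (-1.79 ± 0.51). At that threshold 2.66% of all genes were higher and 1.0% lower. The male-specific steroid hydroxylase Cyp2d9 stood at 6.76, 8.46 and 11.75 in non-tumour and at 11.86, 11.65 and 11.88 in tumour (2.81 ± 1.05, limma adjusted p = 0.914). Non-tumour 623, the sample with low Xist, was the only control near the tumours, and without it the difference was 4.21. Without non-tumour 405 the count of positive genes was 5 of 10 and the list median 0.05, against 0.55 with all arrays. Of 12 female-biased genes 10 were negative and 2 positive (4 positive with median centring), with a median of -0.44. That median was -0.23 without non-tumour 483 and -0.19 without tumour 405, with 4 positive genes each time. The negative genes included Sult1e1 (-2.07 ± 1.32), the estrogen sulfotransferase, and Hao2 (-1.42 ± 0.60), a hydroxyacid oxidase. Cux2, a female-specific transcription factor, was lower in every tumour (-1.03 ± 0.33), but positive when dim features were included (0.35).

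In the rest of the pathway, as among all genes, no gene passed the adjusted test. On the deposited scale, where no member passed, limma called Cyp2d9 (adjusted p = 0.00231) and Elovl3 (0.0118) higher. It called Cyp2e1 (0.0435), Cyp7a1 (0.0375), Sult1e1 (0.00921), Hao2 (0.000695) and Ppargc1a (3.14e-07) lower. Over all genes it called 14 higher and 44 lower there, with the median gene at -0.48. The fit on that scale left genes no variance of their own. Of 24 other CYP1 to CYP4 genes 13 were positive and 11 negative, with 1 higher at an unadjusted p under 0.05, Cyp2d9. Over all genes 43.5% were positive, and at that threshold 2.66% were higher and 1.0% lower. Cyp2c55, an epoxygenase, stood at 9.87, 6.69 and 11.09 against 11.76, 10.04 and 11.53 (1.89 ± 1.02), and non-tumour 483 was the low sample. Of 11 P450s of sterols and vitamins 6 were positive and 5 negative. Without overlap 1 was higher and 1 lower, against 3.93% and 3.89% of all genes. Cyp20a1, an orphan P450, was at 8.16 to 9.22 in non-tumour and 9.38 to 9.48 in tumour without overlap (0.75 ± 0.32), and Cyp27b1, which activates vitamin D, was lower without overlap (-0.33 ± 0.20). Cyp7b1 (0.65 ± 0.71), an oxysterol hydroxylase, overlapped.

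Of 32 other phase I genes 17 were positive and 15 negative, against 43.5% and 56.5% of all genes. In this list 3 were higher at an unadjusted p under 0.05, where 2.66% of all genes were. The 3 were the epoxide hydrolase Ephx1 (0.53 ± 0.21), the aldehyde dehydrogenase Aldh3b1 (1.16 ± 0.49) and the quinone reductase Nqo1 (0.95 ± 0.41). Nqo1 was negative when dim features were included (-0.30). Ephx1 stood at 12.07, 11.98 and 12.73 against 12.80, 12.70 and 12.87, so non-tumour 623 reached the tumours here too. Of 20 other phase II genes 13 were positive and 7 negative with none at an unadjusted p under 0.05. The 4 with the smallest unadjusted p were all positive. They were the sulfotransferase Sult1c2 (1.37 ± 0.68), the acetyltransferase Nat2 (1.07 ± 0.50) and the glucuronosyltransferases Ugt2b35 (0.94 ± 0.50) and Ugt2b34 (0.56 ± 0.29). Differences in this list ran from -2.07 to 1.37, with a median of 0.13.

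Of 15 genes of electron supply and haem turnover 11 were positive and 4 negative, against 43.5% and 56.5% of all genes. At an unadjusted p under 0.05, 2 were higher, where 2.66% of all genes were. Without overlap 1 was higher and 1 lower, against 3.93% and 3.89% of all genes. Blvrb, a biliverdin reductase, stood at 10.14, 10.30 and 11.24 against 11.36, 11.37 and 11.86 without overlap (0.97 ± 0.33, limma adjusted p = 0.914), and Pgrmc1, a haem-binding partner of P450s, gave 0.42 ± 0.18. Cyb5b, the outer-membrane cytochrome, was lower without overlap (-0.56 ± 0.25).

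Of 22 regulators 8 were positive and 14 negative, with 2 lower at an unadjusted p under 0.05, Cux2 and Ppargc1a. Over all genes 56.5% were negative and 1.0% were lower at that threshold. Without overlap 3 regulators were lower, against 3.89% of all genes. Ppargc1a, the metabolic coactivator, stood at 9.62, 11.33 and 8.48 against 5.45, 7.85 and 7.28 without overlap (-2.95 ± 0.80). The xenobiotic receptors themselves stayed within their spread. Nr1i3, which encodes CAR, lay between 6.42 and 9.15 in non-tumour and between 6.59 and 8.23 in tumour (-0.19 ± 0.69), with both samples numbered 405 lowest. Nr1i2, which encodes PXR, gave 0.36 ± 0.28, Ahr -0.37 ± 0.71 and Ppara -0.24 ± 0.31. Without non-tumour 483 Nr1i3 was 0.48 and Ahr 0.10, without tumour 405 they were 0.34 and 0.36, and Ppara was 0.05 without non-tumour 405 and 0.13 with median centring. Nr1i2 stayed positive in each of these, from 0.22 to 0.56 over the 6 omissions. Rora, a nuclear receptor, was lower without overlap (-0.82 ± 0.37).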

How the data were processed

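Per the labels, the authors summarised 1 exon array per sample with PLIER over the full exon set, and the deposited values are intensities on a linear scale. The submitters' processing notes name the mm9 build, and a PLIER version is not given in the sources used here. Of 238609 features, 24343 carried exactly 1 gene symbol in the platform annotation, 1797 several and 212469 none. Here, log2(intensity + 16) of the features with 1 symbol was quantile-normalized, features with a mean intensity under the 25th percentile (62.3) were dropped, and the median over a gene's features was taken, for 16824 genes. Quantile normalization was the main setting because the deposited arrays differed in median by up to 1.2 log2 units. On the deposited scale the prior degrees of freedom were infinite, so genes kept no variance of their own. Tumour was compared with non-tumour over all 6 arrays by limma 3.58.1 in R 4.3.3 (lmFit, eBayes with an intensity trend), two-sided, Benjamini-Hochberg adjusted over all genes at 0.05. The normalization and the fit were also run on simulated data with known changes, and the share of those changes found is not given here.

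The members and gene lists were chosen with earlier results of these data known. Named were every member and, from each other list, up to 4 non-members with the smallest p, while Nr1i3, Nr1i2, Ahr and Ppara were added after their values were seen. The number of arrays limits the precision. Alternatives were other scalings, pseudocounts, filters, feature rules, variance priors, a block on the label number and the omission of each array.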

Additional observations from a re-analysis of the deposited data

How the results depend on the processing

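In 11 other settings and 6 omissions of 1 array, no member passed at an adjusted p under 0.05. Of the 25 members, 9 kept their sign throughout: Cyp2b10, Cyp2d26, Cyp2f2, Cyp2j5, Cyp2u1, Sult1b1 and Sult1d1 positive, Cyp4f14 and Fmo1 negative. The main test called 0 of all genes higher and 0 lower (limma; 448 and 169 at an unadjusted p under 0.05). As deposited, limma called 14 higher and 44 lower, with infinite prior degrees of freedom and the median gene at -0.48. Differences turned negative there for Cyp3a13 (-0.18), Cyp26a1 (-0.36), Aox1 (-0.09), Cyp2j8 (-0.12) and Cyp26b1 (-0.46). Median centring left 4 members negative. It gave 2 members an unadjusted p under 0.05 (Cyp2d26 and Cyp2f2), against 619 of all 16824 genes higher and 88 lower. The same setting turned Cyp1a2 (0.25), Cyp2c70 (0.29), Cyp4f15 (0.26), Fmo5 (0.23), Ces1f (0.07), Sult1a1 (0.12), Slc10a1 (0.12), Abcc2 (0.08), Abcc3 (0.00), Cpt1a (0.16), Cps1 (0.09), Hal (0.20), Pck1 (0.02) and Ppara (0.13) positive. With the brightest feature of a gene, Cyp3a13 was -0.06 and Fmo5 0.04. Without the filter, Cyp2j8 was -0.08, Nqo1 -0.30 and Cux2 0.35. The cause was not tested.

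The numbers 405 and 483 occur in both groups, but the labels do not say that they mark an animal. Deviations from the group means correlated across genes at 0.29 for number 405 and at -0.01 for number 483. Pairs of unlike number ran from -0.34 (non-tumour 405 with tumour 616) to 0.25 (non-tumour 483 with tumour 616). With the number as a random replicate block (correlation 0.16) limma called 0 genes. There 0 members had an unadjusted p under 0.05, against 600 of all 16824 genes higher and 251 lower. With a fixed replicate block on the 4 arrays of both numbers, dropping non-tumour 623 and tumour 616, 10 genes were called higher and 3 lower. Then 3 members had an unadjusted p under 0.05 (Cyp4a14, Cyp4f14 and Sult1b1), against 839 of all 16824 genes higher and 297 lower. In the same fit Cyp1a2 (0.07), Cyp2c70 (0.04), Cyp26a1 (-0.27), Fmo5 (0.02), Angptl4 (-0.14) and Cyp26b1 (-0.07) changed sign.

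With 1 array left out, the positive members ranged from 9 to 17, the negative from 8 to 16, those at an unadjusted p under 0.05 from 0 to 3, and the members' median from -0.12 to 0.25. The single 1 without non-tumour 623 was Sult1b1, where 1031 of all 16824 genes were higher at that threshold and 713 lower. The 3 without tumour 483 were Cyp2b10, Cyp2f2 and Sult1d1, where 745 of all genes were higher and 476 lower. Members that changed sign ranged from -0.86 to 1.05 (Cyp1a2), -0.23 to 0.03 (Cyp2c70), -0.22 to 0.35 (Cyp2d22), -0.59 to 0.63 (Cyp3a13), -2.11 to 0.08 (Cyp4a14), -0.38 to 0.27 (Cyp4f15), -1.24 to 0.17 (Cyp17a1), -0.40 to 0.74 (Cyp26a1), -0.43 to 0.73 (Cyp39a1), -0.38 to 0.14 (Fmo5), -0.65 to 0.23 (Ces1f), -0.19 to 0.46 (Aox1), -0.11 to 0.71 (Aox3), -0.16 to 0.50 (Ugt2a3) and -0.41 to 1.34 (Ugt2b1). Other named genes that changed sign ranged from -0.17 to 1.43 (Cyp7b1), -0.43 to 0.07 (Stra6), -0.12 to 0.21 (Cyp26b1), -0.92 to 0.48 (Nr1i3), -0.95 to 0.36 (Ahr) and -0.43 to 0.05 (Ppara). Counts of list members with arrays left out, and all alternatives for Nr1i3, Nr1i2, Ahr and Ppara, were chosen after seeing the data.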

Other observations

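Genes that the xenobiotic receptors are known to induce did not share a direction. Of 9 CAR and PXR targets tested, 6 were positive and 3 negative, against 43.5% and 56.5% of all genes. Aldh1a7 (0.95 ± 0.53) and Aldh1a1 (0.63 ± 0.50), both aldehyde dehydrogenases, lay above 0. Sult1e1 (-2.07 ± 1.32), given above among the female-biased genes, and the exporter Abcc3 (-0.44 ± 0.35) lay below it. Of 7 AHR targets 3 were positive and 4 negative, among them Nqo1, with an unadjusted p under 0.05 and given above, Tiparp (0.58 ± 0.28), a repressor of AHR, and Cyp1b1 (-0.29 ± 0.22) and Aldh3a1 (-0.26 ± 0.22). Of 10 PPAR-alpha targets 5 were positive and 5 negative. Pdk4, the kinase that blocks pyruvate oxidation, stood at 8.28, 9.78 and 8.83 in non-tumour and at 9.23, 10.49 and 10.58 in tumour, and was the only 1 of them at an unadjusted p under 0.05 (1.14 ± 0.49). Cpt1a (-0.28 ± 0.19), Angptl4 (0.58 ± 0.47) and Ehhadh (0.34 ± 0.29) overlapped. Of 4 retinoic acid targets 2 were positive and 2 negative, with Cyp26b1 at 0.02 ± 0.23, Hic1 at -0.19 ± 0.22 and Stra6 at -0.23 ± 0.28. The adjusted p was 0.914 or more for all of these (limma). At an unadjusted p under 0.05, 2.66% of all genes were higher and 1.0% lower.

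Of 13 transporters of drugs and bile acids 6 were positive and 7 negative, with none at an unadjusted p under 0.05 and 1 lower without overlap. Over all genes 43.5% were positive and 3.89% were lower without overlap. Abcc2, the canalicular exporter of conjugates, stood at 11.62, 11.46 and 11.69 in non-tumour and at 10.83, 11.45 and 11.31 in tumour, lower without overlap (-0.39 ± 0.23), though tumour 483 at 11.45 was close to non-tumour 483 at 11.46. Slc10a1, the bile acid importer, gave -0.30 ± 0.18, the anion transporter Slc22a7 1.11 ± 0.53 and the exporter Abcg2 0.68 ± 0.42. Among periportal genes, Hsd17b13 (0.54 ± 0.38), a lipid droplet enzyme, Cps1 (-0.30 ± 0.22) of the urea cycle, Hal (-0.26 ± 0.24) of histidine breakdown and Pck1 (-0.30 ± 0.34) of gluconeogenesis overlapped between the groups.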
